A study of Homo sapiens with 12 samples.

Results

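The genes described here control the G1 phase of the cell cycle: the D-type cyclins CCND2 and CCND3, their kinases CDK4 and CDK6, the kinase inhibitors CDKN1A, CDKN1B, CDKN2C and CDKN2D, and the pocket proteins RB1 and RBL2. They were measured in CCRF-CEM-C7H2, a glucocorticoid-sensitive subline of CCRF-CEM, which was established from human T-cell acute lymphoblastic leukemia, so every value comes from 1 cell line. Dexamethasone, a synthetic glucocorticoid, was given at 100 nM, control cells were given 0.1% ethanol as its solvent, and RNA was prepared after 6 h or 24 h. Each of the 4 groups held 3 Affymetrix HG-U133 Plus 2.0 arrays, 1 per independent experiment, and the experiment numbers were 0, 1 and 3 for the 6 h arrays but 1, 2 and 3 for the 24 h arrays. The study set dexamethasone against ethanol at each time, and its own interest was in precursors of microRNAs.

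All probe sets that carried 1 of the 10 symbols in the platform's annotation were taken, each on its own, which gave 22 of the 54675 probe sets on the array. Of these, 15 reached a log2 value of 4 on at least 3 of the 12 arrays, the floor for testing, as did 23265 probe sets in all. All 15 were above 4 on all 12 arrays, so none entered through 1 group alone. CDK6 had 7 tested probe sets, RB1 and RBL2 had 2 each, and CCND3, CDK4, CDKN1B and CDKN2D had 1 each. The 4 probe sets of CCND2 read between 1.79 and 2.52 and the single set of CDKN1A between 2.44 and 2.59, below the floor on every array. The second sets of CCND3 (1.96 to 2.65) and CDKN2D (2.0 to 2.08) were also below it. CDKN2C was not analysed here, because no probe set was listed under its symbol.

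In the G1 phase a D-type cyclin binds CDK4 or CDK6, and the active kinase phosphorylates the pocket proteins. Pocket proteins that are not phosphorylated hold the E2F factors and keep the genes of DNA replication off, and phosphorylation releases this block and lets the cell enter S phase. Inhibitors of the INK4 family, among them CDKN2D (p19), bind CDK4 and CDK6 directly, and those of the CIP/KIP family, among them CDKN1B (p27) and CDKN1A (p21), bind complexes of cyclin and kinase. In lymphoid cells CDK6 and CCND3 are the usual partners, and glucocorticoids are known to stop lymphoid leukemia cells in G1 before they die. The parental CCRF-CEM line is known to carry a deletion of the CDKN2A locus, which encodes another INK4 inhibitor.

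Values are log2 expression values, differences are dexamethasone minus ethanol on the log2 scale with limma's standard error (n = 3 arrays per group), and p values are adjusted by Benjamini-Hochberg over the 23265 probe sets. "Rose" and "fell" are used of adjusted p values under 0.05. The cells read as T cells: 9 of 10 T cell marker genes were measured, with their summed level between 15.13 and 15.43, and CD2 was at most 2.27. None of 6 myeloid markers was above the floor, and 1 of 4 stromal markers was. Of 4 erythroid markers only 1 had probe sets under its symbol alone, and it was not above the floor. Among the B cell markers CD79A was measured, and MS4A1, CD22 and PAX5 were at most 3.41. The summed B cell level was 10.6978 to 10.9957 with ethanol and 12.41 to 12.54 with dexamethasone at 24 h, and its part in the results below was not tested. On the dexamethasone arrays the poly-A spike controls exceeded those on the ethanol arrays by 0.47 (6 h) and 0.34 (24 h), so scaling to them lowers every difference by these amounts. The 18S control was lower by 2.27 with dexamethasone at 6 h and higher by 0.28 at 24 h. Array codes in the labels differ between dexamethasone and ethanol at 6 h, where code and treatment cannot be told apart, while all 24 h arrays share 1 code.

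At 24 h, both kinases fell, and both measured inhibitors and RBL2 rose, by between 1.39-fold and 2.04-fold for the probe sets that passed the test. Of the 15 probe sets, 11 changed, 4 upward and 7 downward, and 6 of those 7 measure CDK6. In the same comparison 47.3% of all tested probe sets were called, 22.8% higher and 24.5% lower, so a changed probe set was common on these arrays. Taking 1 lead probe set per gene, the tested set with the highest mean, 3 of 7 genes rose (CDKN1B, CDKN2D and RBL2), 2 fell (CDK4 and CDK6) and 2 did not pass (CCND3 and RB1), where 52% of all 9947 genes were called, 23.9% higher and 28.1% lower. The median difference of the 15 was -0.39, against -0.01 over all tested probe sets, but 7 of the 15 measure CDK6, and over the 7 lead sets it was -0.0815 against -0.022 over all genes. At 6 h none of the 15 passed the limma test, where 6.2% of all probe sets were called by adjusted p. At an unadjusted p under 0.05, 5 of the 15 passed. The share of all probe sets at that unadjusted threshold is not given here, so this count is no result about the members. With the experiment number as a block, 3 members were called lower at 6 h and none higher, beside 13.1% of all probe sets in either direction and 7.5% lower. On the spike scale 14 of the 15 were called lower at 6 h, beside 65% of all probe sets, and at 24 h 1 was called higher and 10 lower, beside 9.57% and 43.3%.

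**Figure D1:**
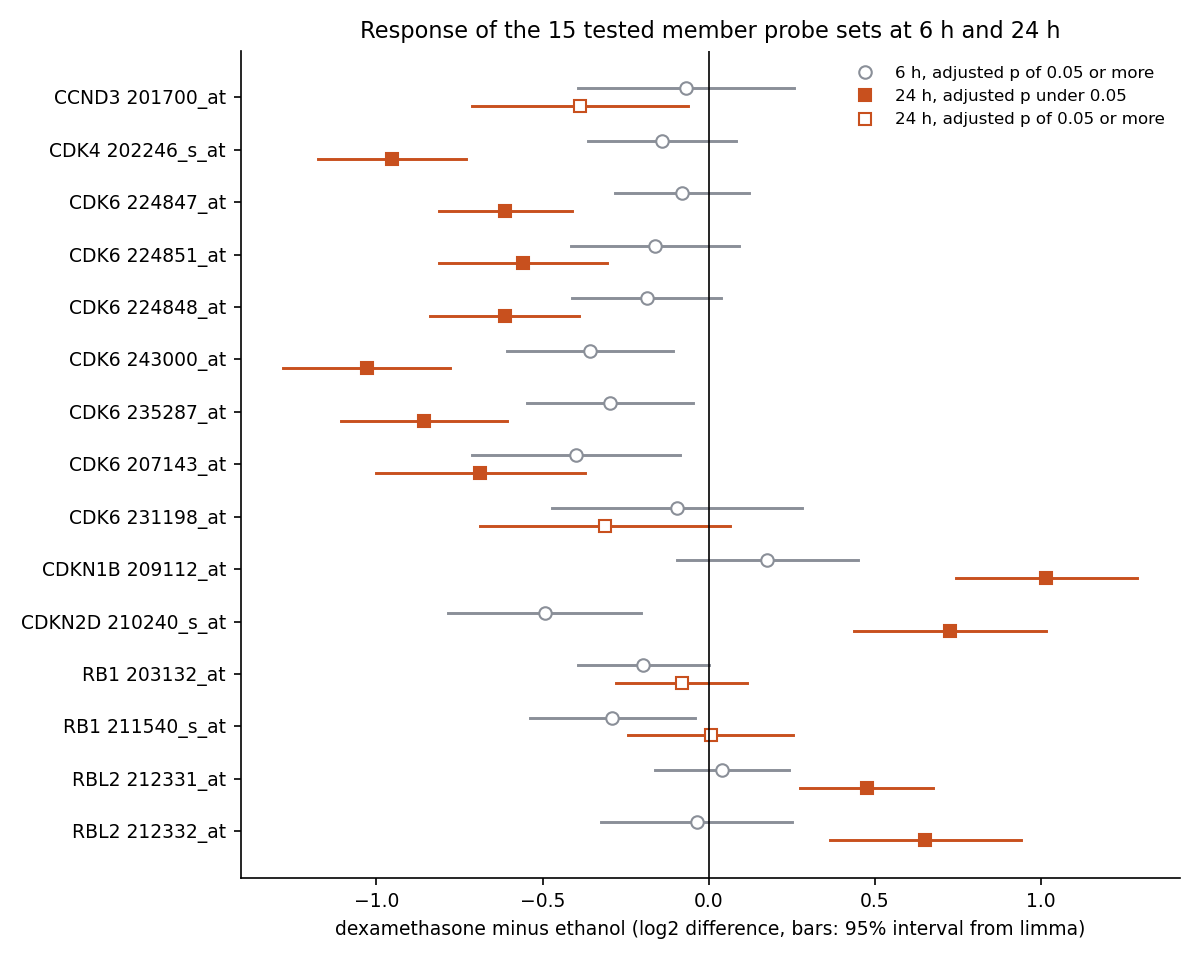
Log2 difference between dexamethasone and ethanol for the 15 tested probe sets of the G1 genes at 6 h (grey circles) and 24 h (orange squares), with 95% intervals from limma; filled symbols have an adjusted p under 0.05. At 24 h the sets of CDKN1B, CDKN2D and RBL2 lie above 0 and all sets of CDK4 and CDK6 below it. Of the CDK4 and CDK6 sets 7 passed at 24 h, while no set of any gene passed at 6 h.

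The plot of differences by probe set shows that the 24 h values of the 2 kinases and of the inhibitors lie on opposite sides of 0, and that only the intervals of RB1 and of 1 weak CDK6 set include 0 at that time. In rank terms, the groups did not overlap for 13 of the 15 probe sets at 24 h, 4 higher and 9 lower with dexamethasone, the 2 RB1 sets being the exceptions, and 61.1% of all tested probe sets showed no overlap, 29.2% higher and 31.9% lower. At 6 h there were 4 such sets, all lower with dexamethasone (CDK4, 2 of CDK6 and CDKN2D), beside 23.5% of all probe sets in either direction and 13.7% lower. In total RNA from a culture, fewer expressing cells and less RNA per cell cannot be told apart.

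The promoter windows of the kinases are shown first, since that of CDK4 holds 3 copies of the E-box CACGTG, the site bound by MYC and related factors. CDK4 lies at chr12:57747727-57752310 on the minus strand, and CDK6 at chr7:92604921-92836573 on the minus strand, by RefSeq on GRCh38.p14. The windows below run from 250 bases before to 50 bases after a RefSeq start, 5′ to 3′ on the strand of the gene, with E-boxes in capitals. The CDK4 window is chr12:57752261-57752560 and the CDK6 window is chr7:92836524-92836823, both on the minus strand.

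CDK4: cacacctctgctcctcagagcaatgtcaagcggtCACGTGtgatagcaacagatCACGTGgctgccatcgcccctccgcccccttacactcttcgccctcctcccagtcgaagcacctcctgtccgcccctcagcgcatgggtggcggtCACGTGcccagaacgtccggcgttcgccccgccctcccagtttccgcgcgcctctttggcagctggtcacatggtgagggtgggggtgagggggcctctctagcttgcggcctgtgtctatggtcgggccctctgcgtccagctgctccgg
CDK6: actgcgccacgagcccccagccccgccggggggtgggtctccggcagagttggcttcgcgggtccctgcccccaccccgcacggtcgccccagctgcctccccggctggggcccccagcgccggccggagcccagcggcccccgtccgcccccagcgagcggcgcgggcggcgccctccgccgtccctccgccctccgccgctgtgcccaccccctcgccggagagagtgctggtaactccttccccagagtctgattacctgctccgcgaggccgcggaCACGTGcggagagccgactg

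The palindrome CACGTG, which reads the same on both strands, stood at bases 35 to 40, 55 to 60 and 150 to 155 of the CDK4 window and at bases 281 to 286 of this CDK6 window. Among 35116 RefSeq promoter windows of this length 7.26% held at least 1 E-box and 0.664% at least 2. The other RefSeq window of CDK6 held none. Windows were found for 9 of the 10 genes, and of the other genes CDKN2C had an E-box, while CCND3, CDKN1A, CDKN1B, CDKN2D, RB1 and RBL2 had none in theirs. The only RB1 window, chr13:48476200-48476499, lies far inside the gene (chr13:48303751-48481890, plus strand). The region at the start of that gene was therefore not searched. The GC box GGGCGG, also searched, was found 3 times in each of the 2 windows shown and in 45% of all windows. These are matches of letters, and binding was not measured.

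CDK4, the single set 202246_s_at, was lower on every dexamethasone array of 24 h than on any ethanol array. At 24 h the ethanol arrays of experiments 1, 2 and 3 read 12.34, 12.45 and 12.50, and the dexamethasone arrays 11.35, 11.73 and 11.35. The groups did not overlap, and the fall was 1.94-fold, a log2 difference of -0.95 ± 0.10 (limma adjusted p = 2.23e-05). Within experiments 1, 2 and 3 the difference was -0.99, -0.72 and -1.15. At 6 h the ethanol arrays of experiments 0, 1 and 3 read 12.56, 12.58 and 12.52 and the dexamethasone arrays 12.38, 12.46 and 12.40. These groups also did not overlap, but the difference of -0.14 ± 0.10 did not pass (limma adjusted p = 0.482), with a 95% interval from -0.36 to 0.08.

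CDK6, the other kinase of the D-type cyclins, was read by 7 probe sets, and 6 of them fell at 24 h. The lead set 224847_at read 13.36, 13.46 and 13.54 with ethanol at 24 h and 12.70, 12.90 and 12.92 with dexamethasone, a difference of -0.61 ± 0.09 (limma adjusted p = 0.00025). At 6 h it read 13.34, 13.49 and 13.62 with ethanol and 13.40, 13.40 and 13.41 with dexamethasone, so the dexamethasone values lay within the ethanol range. The set with the greatest difference, 243000_at, read 10.65, 10.53 and 10.62 with ethanol at 24 h and 9.41, 9.64 and 9.65 with dexamethasone. It fell 2.04-fold, a difference of -1.03 ± 0.11 (limma adjusted p = 3.03e-05). At 6 h the same set read 10.26, 10.38 and 10.59 with ethanol and 10.17, 9.86 and 10.13 with dexamethasone, a difference of -0.36 ± 0.11 that did not pass (limma adjusted p = 0.0986) although the groups did not overlap.

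The other CDK6 sets gave the same direction at 24 h with differences of unequal size. Set 235287_at read 10.46, 10.48 and 10.60 with ethanol and 9.62, 9.62 and 9.74 with dexamethasone at 24 h, and fell by 0.86 ± 0.11 (limma adjusted p = 0.000111). Its 6 h arrays read 10.19, 10.31 and 10.51 with ethanol and 10.24, 9.83 and 10.05 with dexamethasone, which overlap. Set 207143_at read 8.88, 8.87 and 8.96 with ethanol and 8.01, 8.24 and 8.40 with dexamethasone at 24 h (-0.69 ± 0.14, limma adjusted p = 0.00225). Its 6 h values were 8.76, 8.84 and 9.20 with ethanol and 8.57, 8.32 and 8.72 with dexamethasone. That 6 h difference of -0.40 ± 0.14 did not pass (limma adjusted p = 0.138) but did with the experiment as a block (adjusted p = 0.0369); over all alternatives its adjusted p ran from 0.00324 to 0.357.

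Sets 224851_at and 224848_at, which lie near the lead set in signal, behaved like it. The first read 13.14, 13.31 and 13.46 with ethanol and 12.65, 12.72 and 12.87 with dexamethasone at 24 h (-0.56 ± 0.11, limma adjusted p = 0.00213), and 13.09, 13.26 and 13.42 against 13.14, 12.96 and 13.19 at 6 h. The second read 13.07, 13.22 and 13.34 against 12.52, 12.56 and 12.71 at 24 h (-0.61 ± 0.10, limma adjusted p = 0.000519), and 13.13, 13.31 and 13.41 against 13.03, 13.06 and 13.21 at 6 h. Neither passed at 6 h, and in both the groups overlapped there. The remaining set, 231198_at, was close to the floor, between 4.09 and 5.05, and its 24 h difference of -0.31 ± 0.17 did not pass (limma adjusted p = 0.157). It was -0.84 in experiment 1 and -0.07 and -0.02 in the others, so 1 array carries most of it.

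**Figure D2:**
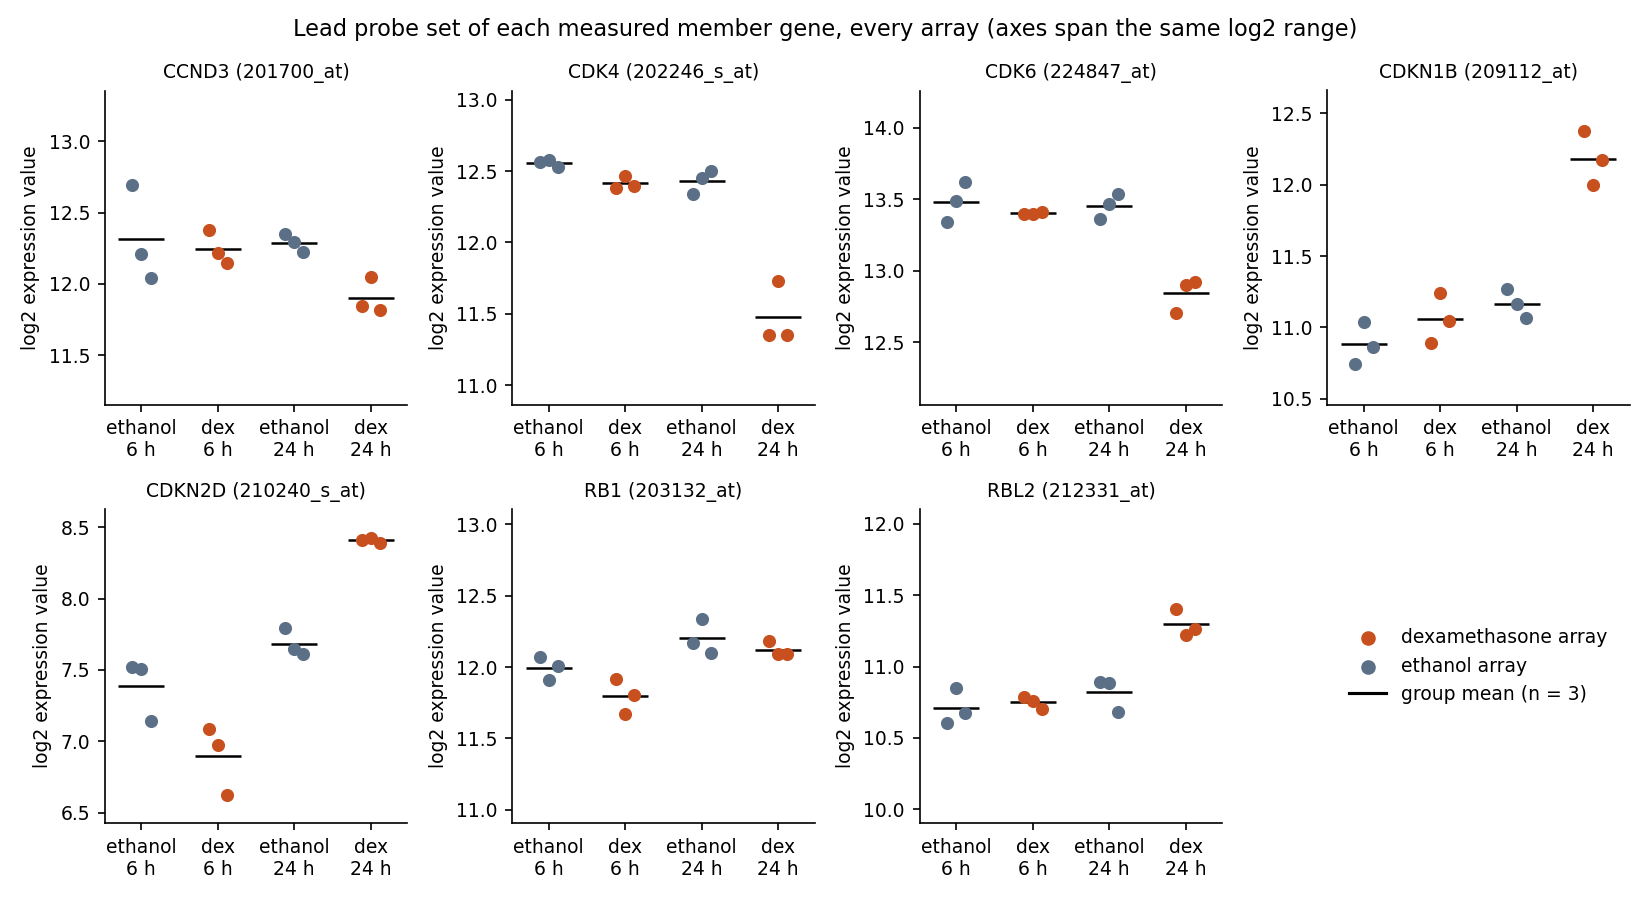
Log2 value of the lead probe set of each of the 7 measured G1 genes on all 12 arrays, by group, with 1 point per array and the bar at the group mean. CDK4 and CDK6 are lowest, and CDKN1B, CDKN2D and RBL2 highest, in the 24 h dexamethasone group, while the RB1 values of that group lie within the range of the 24 h ethanol arrays or just below it.

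The plot of the lead sets by array gives each gene its own axis, since signals of different probe sets cannot be compared as levels. In CCND3 the ethanol arrays spread more widely at 6 h than at 24 h, and CDKN2D shows groups apart at both times, in opposite directions.

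CCND3, the D-type cyclin that these arrays measured, did not pass at either time with its set 201700_at. At 24 h the ethanol arrays read 12.35, 12.30 and 12.23 and the dexamethasone arrays 11.84, 12.05 and 11.82, groups that did not overlap. The difference was -0.39 ± 0.15 with a 95% interval from -0.71 to -0.06 (limma adjusted p = 0.0504). With the experiment as a block its adjusted p was 0.0133, and over all 22 alternatives it ran from 0.00588 to 0.14, with 10 of them under 0.05. Leaving out the ethanol 6 h array of experiment 0 gave 0.00749, that of experiment 3 gave 0.03 and the dexamethasone 24 h array of experiment 2 gave 0.0442. At 6 h the ethanol arrays ran from 12.04 to 12.69 and the dexamethasone arrays from 12.15 to 12.37, a difference of -0.07 ± 0.15 (limma adjusted p = 0.858). The other CCND3 set, 1562028_at, was below the floor in every group and went the other way at 24 h, with 1.97 to 2.0 on the ethanol arrays and 2.65, 2.22 and 2.42 on the dexamethasone arrays. It was not tested here, and in the fit with no filter its difference was 0.44 (limma adjusted p = 0.00479).

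The kinase inhibitors come next, and the promoter windows of the 2 that were measured are shown so that they can be read beside those of the kinases. CDKN1B lies at chr12:12717368-12722369 on the plus strand and its window is chr12:12717118-12717417. CDKN2D lies at chr19:10566460-10568979 on the minus strand and its window is chr19:10568930-10569229.

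CDKN1B: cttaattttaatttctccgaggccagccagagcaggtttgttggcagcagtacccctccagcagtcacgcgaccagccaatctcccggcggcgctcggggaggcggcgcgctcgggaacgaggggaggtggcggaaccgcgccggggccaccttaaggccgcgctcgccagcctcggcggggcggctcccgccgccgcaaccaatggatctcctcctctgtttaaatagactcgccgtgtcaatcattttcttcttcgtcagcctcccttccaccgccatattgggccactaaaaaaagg
CDKN2D: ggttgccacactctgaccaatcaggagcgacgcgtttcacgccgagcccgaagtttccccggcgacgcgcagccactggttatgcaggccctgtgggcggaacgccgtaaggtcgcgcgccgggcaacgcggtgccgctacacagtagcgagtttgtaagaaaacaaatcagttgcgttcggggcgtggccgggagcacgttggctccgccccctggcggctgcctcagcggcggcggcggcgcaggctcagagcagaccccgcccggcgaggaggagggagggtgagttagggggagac

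No letters are in capitals because the windows held none of the E-box, forkhead, E2F and glucocorticoid receptor motifs. The GC box GGGCGG was found once in the CDKN1B window and 3 times in the CDKN2D window. Both strands were searched for these: the E-box CACGTG, the forkhead motif GTAAACA, the E2F motifs TTTCGCGC and TTTGGCGC and the palindromic glucocorticoid response element. GTAAACA was in 3.42% of all windows and, among these genes, in 1 window of CCND3. An E2F motif was in 1.15% of all windows and the palindromic element in 0.00285%, and neither was in any window of these genes. For RB1 this leaves out the region at the start of the gene, which had no window.

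CDKN1B, the CIP/KIP inhibitor p27, rose 2.02-fold at 24 h. The ethanol arrays of 24 h read 11.27, 11.16 and 11.07 on its set 209112_at and the dexamethasone arrays 12.37, 12 and 12.17. All 3 treated arrays lay above all 3 controls, by 1.02 ± 0.12 (limma adjusted p = 6.04e-05), and by 1.11, 0.84 and 1.10 within the experiments. At 6 h the ethanol arrays read 10.74, 11.04 and 10.86 and the dexamethasone arrays 10.89, 11.24 and 11.04, which overlap. The 6 h difference was 0.18 ± 0.12 (limma adjusted p = 0.472, 95% interval -0.10 to 0.45), higher in 3 of 3 experiments. It was the single member called higher at 24 h on the spike scale.

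CDKN2D, the INK4 inhibitor p19, rose 1.65-fold at 24 h and had the lowest 6 h difference of the 15 sets. At 24 h its set 210240_s_at read 7.79, 7.64 and 7.61 with ethanol and 8.41, 8.43 and 8.39 with dexamethasone, a rise of 0.73 ± 0.13 (limma adjusted p = 0.000934). On the spike scale the 24 h difference was 0.39 and did not pass (limma adjusted p = 0.0731); over all alternatives the adjusted p ran from 0.000108 to 0.0731. At 6 h it read 7.52, 7.51 and 7.14 with ethanol and 7.09, 6.98 and 6.63 with dexamethasone, so the treated arrays were below all controls. The 6 h difference was -0.49 ± 0.13 (limma adjusted p = 0.0514), and -0.43, -0.53 and -0.52 within experiments 0, 1 and 3. It passed with the experiment as a block (adjusted p = 0.00553), without the dexamethasone array of experiment 0 (0.0377) and without the ethanol array of experiment 3 (0.0268); over all alternatives it ran from 0.00138 to 0.203, with 7 of 22 under 0.05.

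**Figure D3:**
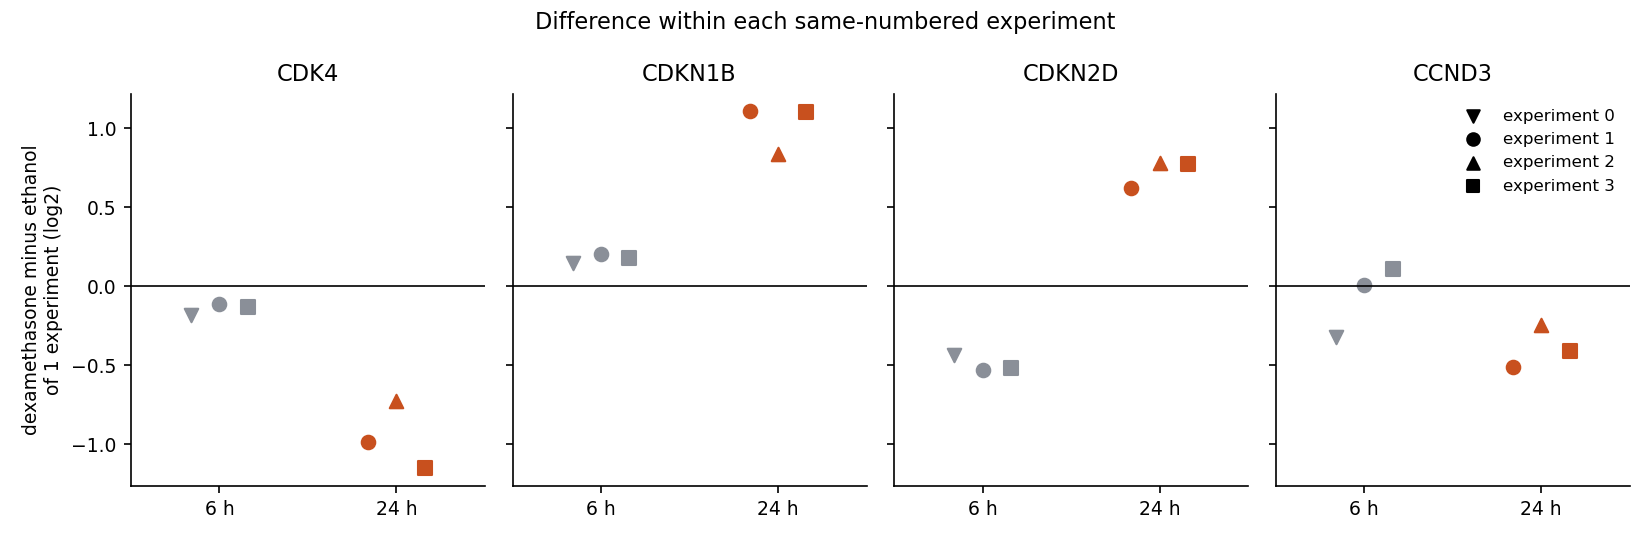
Dexamethasone minus ethanol within each same-numbered experiment (log2) for CDK4, CDKN1B, CDKN2D and CCND3 at 6 h (grey) and 24 h (orange), 1 symbol per experiment. CDKN2D lies between -0.53 and -0.43 at 6 h and between 0.62 and 0.78 at 24 h, whereas the 6 h values of CCND3 lie on both sides of 0.

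Seen within experiments, CDKN2D lay below 0 in 3 of 3 experiments at 6 h and above 0 in 3 of 3 at 24 h, and CDK4 and CDKN1B kept 1 direction throughout, with larger values at 24 h. CCND3 was below 0 in 3 of 3 experiments at 24 h (-0.51, -0.24 and -0.41) and scattered at 6 h (-0.32, 0.01 and 0.11).

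RBL2 (p130), the pocket protein that represses E2F genes in cells at rest, rose at 24 h on both of its probe sets. The lead set 212331_at read 10.89, 10.88 and 10.68 with ethanol and 11.41, 11.22 and 11.26 with dexamethasone at 24 h, a rise of 0.48 ± 0.09 or 1.39-fold (limma adjusted p = 0.00136). The second set, 212332_at, read 7.84, 7.89 and 7.81 against 8.56, 8.44 and 8.50, a rise of 0.65 ± 0.13 or 1.57-fold (limma adjusted p = 0.00181). In neither set did the 24 h groups overlap. On the spike scale these differences were 0.14 (limma adjusted p = 0.484) and 0.31 (limma adjusted p = 0.12), and under every other alternative both passed, with adjusted p values down to 0.000336 and 0.000188. At 6 h the lead set read 10.60, 10.85 and 10.68 with ethanol and 10.79, 10.76 and 10.70 with dexamethasone, and the second 7.62, 7.89 and 7.94 against 7.47, 7.98 and 7.89. The 6 h groups overlapped in both, with differences of 0.04 and -0.04.

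RB1, the retinoblastoma protein, passed at neither time on either set. Its lead set 203132_at read 12.17, 12.34 and 12.10 with ethanol and 12.18, 12.09 and 12.09 with dexamethasone at 24 h, a difference of -0.08 ± 0.09 (limma adjusted p = 0.487) with a 95% interval from -0.28 to 0.12. The second set, 211540_s_at, read 8.11, 8.13 and 8.01 against 8.04, 8.07 and 8.15, a difference of 0.01 ± 0.11 with an interval from -0.24 to 0.25. At 6 h the lead set read 12.07, 11.91 and 12.01 with ethanol and 11.92, 11.67 and 11.80 with dexamethasone (-0.20 ± 0.09, limma adjusted p = 0.249). The second set was at 8.41, 8.07 and 8.05 against 8.05, 7.89 and 7.72 (-0.29 ± 0.11, limma adjusted p = 0.176); the block gave it an adjusted p of 0.0449, within 0.00372 to 0.424 over all alternatives. On the spike scale the lead set 203132_at was called lower at 6 h (-0.66, limma adjusted p = 0.0055) and at 24 h (-0.42, limma adjusted p = 0.0445). On that scale 65% and 43.3% of all probe sets were called lower at these times.

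The response at 24 h differed from that at 6 h for 8 of the 15 sets, 4 in each direction, by the interaction term of the same limma fit, in which 23.1% of all tested probe sets were called, 11.4% higher and 11.7% lower. CDKN2D differed most, by 1.22 ± 0.19 (limma adjusted p = 0.00105), and moved from a negative difference to a rise. CDK4 differed by -0.81 ± 0.14 (limma adjusted p = 0.00245) and CDKN1B by 0.84 ± 0.17 (limma adjusted p = 0.00623). For CDK6, sets 243000_at (-0.67 ± 0.16), 224847_at (-0.53 ± 0.13) and 235287_at (-0.56 ± 0.16) passed, with limma adjusted p values of 0.0126, 0.0131 and 0.0289. Set 224848_at (-0.43, limma adjusted p = 0.0538) passed with the block (0.0103), as did 224851_at (-0.40, limma adjusted p = 0.105 and 0.0361 with the block); their adjusted p values reached 0.386 and 0.476 over the alternatives. Both RBL2 sets passed, 212332_at with 0.69 ± 0.18 (limma adjusted p = 0.0211) and 212331_at with 0.435 ± 0.13 (limma adjusted p = 0.0326). The call of 212332_at was lost with no filter (0.0512), that of 212331_at with median centring (0.0592) and that of 235287_at with no filter (0.0591). The calls of 212331_at and 235287_at were also lost without any 1 of 7 and of 8 of the 12 arrays respectively, with adjusted p values up to 0.0767 and 0.0661. The call of 212331_at was kept only without the experiment 0 arrays of 6 h, the experiment 2 arrays of 24 h or the ethanol 24 h array of experiment 1, and that of 235287_at only without the dexamethasone 6 h array of experiment 1, the ethanol 6 h array of experiment 3, the ethanol 24 h array of experiment 1 or the dexamethasone 24 h array of experiment 3. CCND3 differed by -0.32 and did not pass (limma adjusted p = 0.311), but did without the ethanol 6 h array of experiment 0 (-0.51, limma adjusted p = 0.0308). This contrast crosses the array codes of 6 h. On the spike scale 4 of the 15 were called, 3 higher and 1 lower, beside 14.2% of all probe sets. None of these was a CDK6 set: 243000_at, 224847_at and 235287_at lost their calls there (limma adjusted p = 0.183, 0.214 and 0.273). RBL2 212331_at also lost its call there (limma adjusted p = 0.116).

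Between the ethanol groups of 24 h and 6 h none of the 15 sets passed in limma, beside 0.486% of all probe sets called by adjusted p. At an unadjusted p under 0.05, 3 passed: CDKN1B, CDKN2D and RB1 203132_at, with differences of 0.28, 0.29 and 0.21. The share of all probe sets at that unadjusted threshold is not given here. None of the 15 passed by adjusted p under any alternative tried. These groups also differ in array code.

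The partners of the G1 genes were read from 2 lists, 1 lead probe set per gene. Of 34 other regulators of G1 and of S phase entry, 29 were measured, and at 24 h 4 rose, 11 fell and 14 did not pass, with a median difference of -0.09 against -0.02 over all 9947 genes. The list was thus called about as often as the array as a whole, where 52% of genes passed, 23.9% higher and 28.1% lower. CDC25A, the phosphatase that activates CDK2, fell by 1.33 ± 0.13 (limma adjusted p = 1.12e-05), and E2F5, a repressive E2F factor that binds the pocket proteins, fell by 1.70 ± 0.22 (limma adjusted p = 8.46e-05). CUL1, the scaffold of the SCF ubiquitin ligase that degrades CDKN1B, rose by 0.81 ± 0.08 (limma adjusted p = 1.71e-05), whereas SKP2, the subunit of that ligase which recognises CDKN1B, fell by 0.57 ± 0.09 (limma adjusted p = 0.000354). LIN37, a subunit of the DREAM complex in which RBL2 acts, rose by 0.86 ± 0.11 (limma adjusted p = 6.22e-05). The other 2 that rose were E2F3 (0.27 ± 0.08) and E2F8 (0.50 ± 0.14), and RBL1, the third pocket protein, fell by 0.26 ± 0.08. Without the dexamethasone array of experiment 1, 9 of the list were called, 2 higher and 7 lower, and E2F3, E2F8 and RBL1 were among the calls lost. The share of all genes called without that array is not given here. On the spike scale 2 of the list were higher and 17 lower, beside 9.57% and 43.3% of all probe sets. These shares count probe sets, whereas the list counts 1 lead set per gene, so the 2 are not directly comparable. RBL1 was also lost without either array of experiment 3 or the ethanol array of experiment 1, E2F3 without the latter and E2F8 without the dexamethasone array of experiment 2. SKP2, RBL1, E2F3 and E2F8 were picked after their values were seen.

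The cyclins and the kinase of the next step did not pass at 24 h: CCNE1 differed by -0.03, CCNE2 by 0.20, CCNA2 by -0.12 and CDK2 by 0.02. CCND1, CDKN1C, CDKN2A, CDKN2B and E2F4 stayed below the floor on all arrays, with highest values of 2.58, 2.48, 3.76, 2.55 and 3.80. At 6 h, where 6.49% of all genes were called, LIN37 was the single gene of this list that passed (0.45 ± 0.11, limma adjusted p = 0.0322). That call was lost without the dexamethasone array of experiment 1, without any of the 3 ethanol 6 h arrays or without the ethanol 24 h array of experiment 1, with adjusted p values up to 0.0984, and was 0.901 on the spike scale. The experiment block gave other counts for this list at 6 h: 2 genes higher and 4 lower. Of all probe sets, 13.1% were called with the block in either direction and 7.5% lower. On the spike scale 20 of the list were lower, beside 65% of all probe sets. The block and spike shares given here count probe sets, whereas the list counts 1 lead set per gene.

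Of 18 S phase genes that E2F factors are known to drive, 17 were measured, and at 24 h 5 fell and none rose, with a median difference of -0.17 against -0.02 over all genes. Since 28.1% of all genes were called lower, the count of falls is near the background and is no result about these genes as a group. The 5 are loaders or parts of the replication helicase: MCM4 (-0.75 ± 0.10, limma adjusted p = 0.000162), CDC6 (-0.63 ± 0.15, limma adjusted p = 0.00458), MCM2 (-0.50 ± 0.12, limma adjusted p = 0.00679), MCM7 (-0.43 ± 0.11, limma adjusted p = 0.00829) and CDT1 (-0.40 ± 0.12, limma adjusted p = 0.015). CDT1, named because only 5 fell, lost its call without the dexamethasone array of experiment 3. The other 12, among them PCNA and the ribonucleotide reductase genes RRM1 and RRM2, did not pass. With the experiment as a block 1 was called higher and 9 lower, and without the dexamethasone array of experiment 2, 9 were called lower. The shares of all genes called under these settings are not given here, so these counts are no result about the group. At 6 h none of the 17 passed in limma, and 1 was called higher with the block, beside 13.1% of all probe sets in either direction. That share counts probe sets, whereas the 17 are lead sets of genes.

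**Figure D4:**
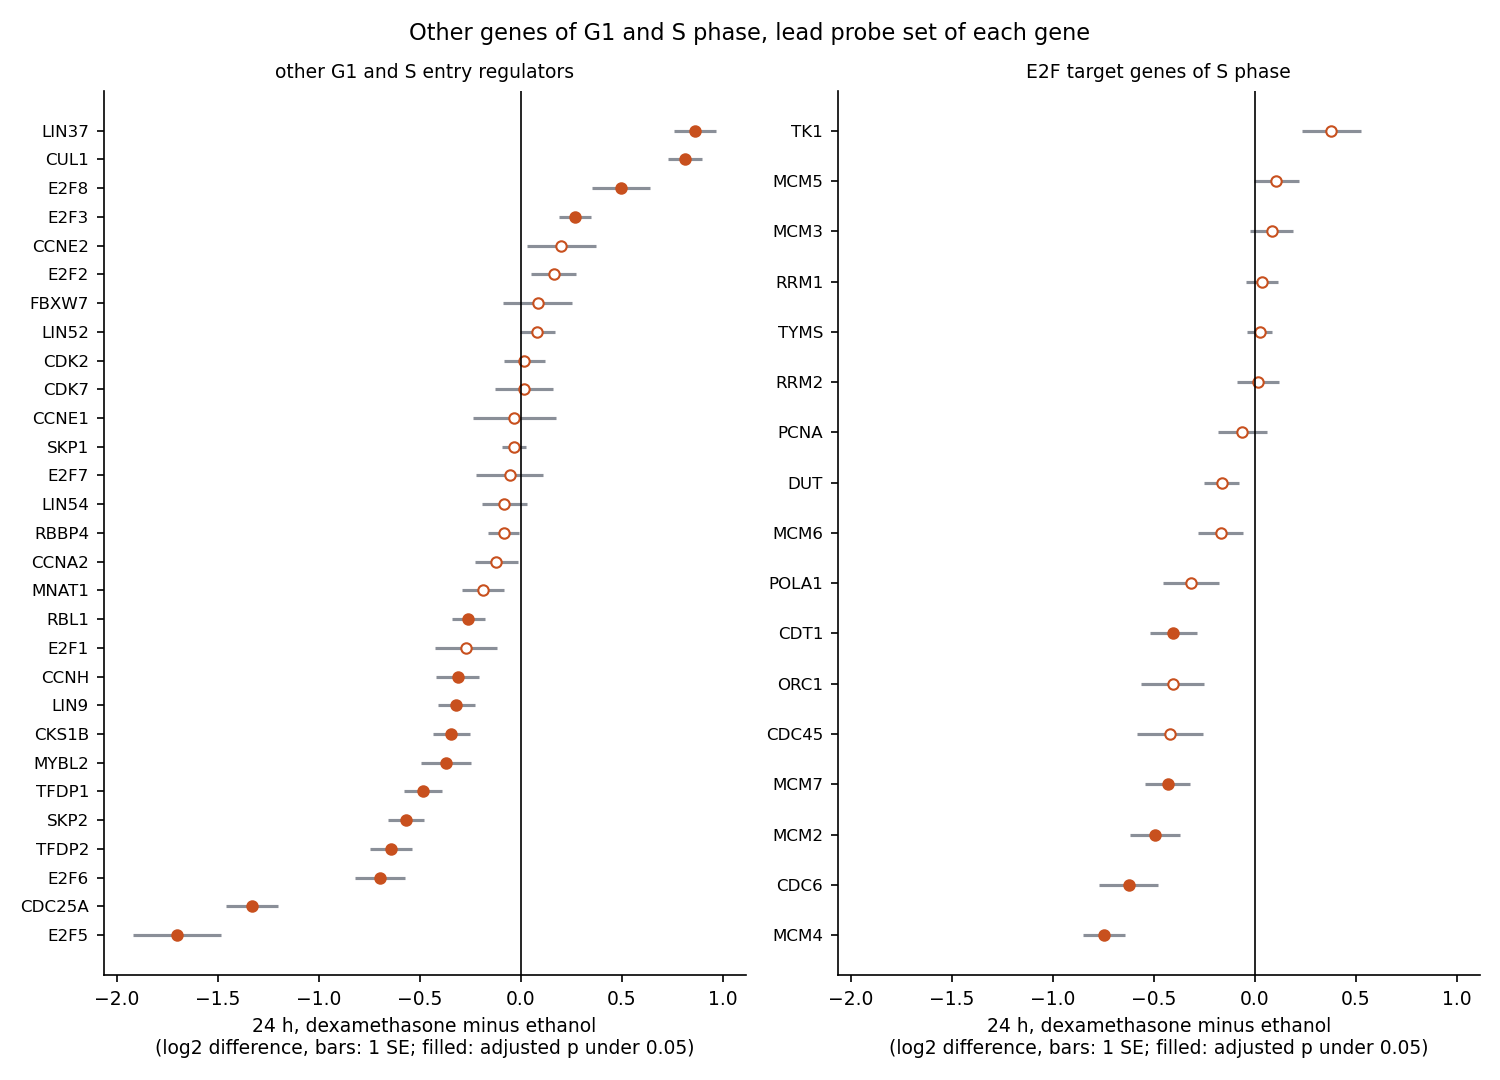
Log2 difference at 24 h (dexamethasone minus ethanol, bars 1 SE) of the lead probe set of each other regulator of G1 and S entry (left, 29 genes) and each E2F target gene of S phase (right, 17 genes); filled points have an adjusted p under 0.05. On the left LIN37 and CUL1 are highest and E2F5 and CDC25A lowest, and on the right the filled points are all below 0.

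The plot of the partner genes shows that the regulators spread to both sides of 0, while the called S phase genes are 5 points between -0.75 and -0.40.

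As a description, the genes whose lead probe sets followed each member most closely over the 12 arrays were found by Pearson's r among 9946 other genes; the arrays lie in 4 groups, and the genes share these groups. CDK4 was followed by ADGRA3 (r = 0.9955) and ECE2 (0.9948), CDK6 by NOL6 (0.9859) and CFAP298 (0.9825), and CDKN2D by MED30 (0.9803) and GABARAPL2 (0.979). CDKN1B was followed by DNAJC18 (0.9862) and H2AC6 (0.9847). RBL2 was followed by PTPRC (0.9818) and by CDKN1B itself (0.969). CCND3 and RB1 had less close neighbours, at most 0.9425 for CCND3 (an immunoglobulin lambda variable gene, then C9orf40 at 0.9231) and SLAIN2 (0.9158) and FOXN2 (0.8972) for RB1.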

How the data were processed

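The authors deposited 1 table of log2 expression values per probe set, and the submitters' processing notes name GCRMA and R 2.6; how it was set is not given in the sources used here. GCRMA corrects background by probe sequence and normalizes between arrays, so differences are relative to the other probe sets. Between 41.2 and 42.0% of probe sets per array reached a log2 of 4, and arrays of 1 group correlated at r of 0.989 or more. No depth exists for arrays; precision is limited by 3 arrays per group.

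A group-means model over all 12 arrays was fitted with limma 3.58.1 in R 4.3.3 (8 residual degrees of freedom), tested on simulated data first. There 28 of 100 simulated 24 h changes of 0.5 on the log2 scale were called, and 84 of 100 changes of 1. The simulation held far fewer changed probe sets than were called in the data and no experiment effects, so its recovery need not carry over. Tests left out the 62 controls. The members and lists were chosen with earlier results of these data known. Named genes were all member probe sets, the 4 smallest p values at 24 h per list and the 2 nearest genes per member, besides genes marked as picked later, and others named for their role. Gene names and promoter windows came from RefSeq tables of GRCh38.p14. The experiment numbers pair the samples: same-numbered arrays correlated, after group means were removed, at 0.417, 0.627 and 0.609 at 6 h and 0.286, 0.238 and 0.424 at 24 h, other pairs at most at 0.05. Alternatives were the block, filters, scalings, array weights, an intensity trend, fewer groups and each array left out.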

Additional observations from a re-analysis of the deposited data

Results flagged for a closer look

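The response at 24 h differed from the response at 6 h for 8 of the 15 tested probe sets of the G1 genes. The test was the interaction term in limma with Benjamini-Hochberg adjustment, which called 23.1% of all tested probe sets. The difference was 1.22 for CDKN2D, 0.84 for CDKN1B, 0.69 for RBL2 212332_at and 0.435 for RBL2 212331_at. It was -0.81 for CDK4, -0.67 for CDK6 243000_at, -0.53 for CDK6 224847_at and -0.56 for CDK6 235287_at. On the spike scale these CDK6 sets did not pass (limma adjusted p = 0.183, 0.214 and 0.273), nor did RBL2 212331_at (limma adjusted p = 0.116). CDKN2D was lower with dexamethasone in 3 of 3 experiments at 6 h and higher in 3 of 3 at 24 h. The 6 h side of each value crosses the array codes, and the part of these in the values was not tested.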

How the results depend on the processing

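The count of member probe sets called at 6 h, 0, became 3 with a block for experiment within time, 2 with a block shared across times, 1 with a filter at a log2 of 6 or an intensity trend, 14 on the poly-A spike scale, and 0 to 1 when 1 array was left out. At 24 h it was 11 or 12 in every alternative, but on the spike scale the sets called were not the same. There CDKN2D and both RBL2 sets lost their calls. CCND3 201700_at, CDK6 231198_at and RB1 203132_at were called lower there (limma adjusted p = 0.00588, 0.0116 and 0.0445). For the difference between the times the count was 8, and 4 on the spike scale, and 6 to 9 when 1 array was left out. With the block 4 sets were called higher and 6 lower, and calls also changed with no filter and with median centring. For ethanol over time the count was 0 throughout. The share of all probe sets called is given above only for the main fit, the spike scale and the 6 h block. Member counts under the other settings stand without that share and are no result about the members. Among member calls the block changed none beyond those given above. The list counts that follow stand here without the share of all genes under the same setting, and are no result about the lists. Called genes of the 29 regulators numbered 1 at 6 h, 6 with the block, 2 with the shared block, 20 on the spike scale, 0 with no filter, array weights or only the 6 h arrays and 0 to 2 with 1 array left out; at 24 h they numbered 15 and with 1 array left out at least 9; for the difference between times 7, and 2 on the spike scale. Of the 17 E2F targets none was called at 6 h, 1 with the block, 5 on the spike scale and 0 to 1 with 1 array left out; at 24 h 5, 10 with the block or on the spike scale, 8 with the shared block, a filter at 6 or an intensity trend, 9 with array weights and at most 9 with 1 array left out; for the difference between times 3, 8 with the block, 7 with the shared block, 0 on the spike scale and at most 8 with 1 array left out. On the spike scale RBL2 212331_at reversed at 6 h to -0.43 (limma adjusted p = 0.0308), LIN37 at 6 h to -0.0198 (0.901) and E2F3 at 24 h to -0.0681 (0.716); the scale subtracts the spike difference by its construction. Of 1286 values of single members under alternatives, 1 reversed, and 27 others that did not pass changed sign.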
